A study of Drosophila melanogaster with 16 samples.

Results

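The comparison described here is between ganglion mother cells (GMCs) and type I neuroblasts (NBs) of the Drosophila larval brain, taken as a common effect over 3 ages, 1.5, 3 and 5 h. It uses all 16 libraries of the series, 7 of GMCs and 9 of NBs, with the age as a block. The common effect of a gene is an average over the ages, so a gene can be called without differing at every age. The cells came from brains of wandering larvae, at the last larval stage, that carried UAS-dcr2, ase-GAL4 and UAS-stinger::GFP, and the labels call them wild type. By these labels the asense driver put a nuclear GFP and the RNA interference enzyme Dicer-2 into the sorted cells, NBs and GMCs alike, but the measured Dcr-2 of the 5 h libraries goes against this. NBs were sorted by fluorescence, kept in culture, and sorted again after 1.5, 3 or 5 h, when the GMCs they had produced were collected apart from the NBs. There were 3 libraries for NBs at each age, 3 for GMCs at 1.5 h, 2 for GMCs at 3 h and 2 for GMCs at 5 h. The labels do not say whether replicates came from separate cultures, and the p-values then reflect no more than the spread among these libraries, which may be technical.

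An NB divides asymmetrically, renewing itself and budding off a smaller GMC, which usually divides once more to form a pair of neurons or glial cells. At each division the adaptor Miranda carries the homeodomain protein Prospero to the basal side, so that the GMC inherits it. Prospero then enters the nucleus, where it represses stem cell and cell cycle genes and activates genes of differentiation. Numb, inherited by the same daughter, dampens Notch signalling, which in NBs maintains self-renewal through bHLH repressors of the Hes family such as Deadpan and the E(spl) proteins.

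Between 6899670 and 21207182 reads per library were counted in genes, and levels are given as counts scaled to a fixed library total (CPM) after TMM scaling. File names give one flow cell per age, so a comparison of GMCs with NBs lies within a run at every age, but the ages cannot be told apart from the runs. NB replicate 1 of 5 h stood apart from the other libraries of its group on the second principal component (29.2% of the variance), with a score of -0.241 against 49.6 and 39.9. All libraries of 5 h also stood apart in Dcr-2, which the UAS-dcr2 transgene is expected to raise: it was at 151 to 384 CPM in the 5 libraries of 5 h and at 2860 to 23000 CPM in the 11 libraries of 1.5 and 3 h. The libraries labelled 5 h thus go against the UAS-dcr2 of their label, their genotype is uncertain, and age, run and genotype cannot be told apart. For named genes whose difference changed between ages, values by age or without an age are given in most cases.

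The summed markers of GMCs separated the libraries as labelled, and the summed markers of NBs did not. The summed level of 4 GMC markers (pros, nerfin-1, tap and dap) was 3590 to 8890 CPM in GMCs (median 5970) and 543 to 1280 CPM in NBs (median 692), without overlap. Of 8 NB markers, dpn, mira, insc, grh, klu and E(spl)mgamma-HLH were lower in GMCs in the common test described below. The marker ase was higher (342 to 1590 CPM in GMCs, 266 to 481 CPM in NBs) and wor was not called. Their summed level overlapped widely, with 2130 to 3900 CPM in GMCs and 2280 to 4380 CPM in NBs. That of 6 neuron markers was 954 to 5380 CPM in GMCs and 236 to 821 CPM in NBs, again without overlap, but most of this sum was elav; nSyb and Appl, for example, overlapped, at 3.03 to 41.9 and 48.4 to 257 CPM in GMCs and 1.33 to 37.6 and 17.8 to 160 CPM in NBs. The summed level of 7 glia markers was 586 to 1070 CPM in GMCs and 518 to 822 CPM in NBs. Most of it was Eaat1 (268 to 681 and 211 to 438 CPM) and nrv2 (282 to 422 and 287 to 417 CPM). Hemocyte, fat body and muscle markers summed to 78.1 CPM or less in every library. The glial master regulator repo stood at 4.79 CPM or less throughout. The part of neurons or glia in the results was not tested. In sorted bulk samples, fewer cells of a type and less of its RNA per cell cannot be told apart.

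Across the 3 ages, 4001 of the 10913 genes tested, or 36.7%, differed between GMCs and NBs (edgeR quasi-likelihood test with age as a block, adjusted p under 0.05). In GMCs 2055 were higher (18.8%) and 1946 lower (17.8%). The higher genes had a median log2 fold change of 0.975, with 1005 genes above 1, 241 above 2 and 75 above 3. Lower genes had a median of -0.766, with 575 below -1, 31 below -2 and 0 below -3. A test against a 2-fold difference, rather than against no difference, called 126 genes higher and 85 lower, 211 in all or 1.93% of those tested. With the trend of level with gene length removed it called 91 higher and 118 lower, so which direction held more genes past 2-fold turned with that setting. Leaving out 1 library moved the higher ones from 126 to between 80 (without GMC replicate 2 of 3 h) and 253 (without NB replicate 3 of 5 h). Without NB replicate 1 of 5 h the common test called 4633 genes, 2431 higher and 2202 lower. Without all 5 h libraries it called 4230, among them 3209 of the 4001, each with the same sign as before.

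Most of the common calls could also be made at single ages. At 1.5 h alone 1916 genes were called (17.6%), at 3 h 2255 (20.7%) and at 5 h 3144 (28.8%). Of the genes called higher over all ages, 268 were also called higher at every single age, 690 at 2 ages, 733 at 1 and 364 at none. For those called lower the numbers were 451, 534, 616 and 345. The calls made at no single age had a median size of 0.592 on the log2 scale, about that of a small shift, whereas those made at every age had a median size of 1.202. In the other direction, 4507 genes were called at 1 age or more, and 1215 of these were not called in the common test.

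**Figure D1:**
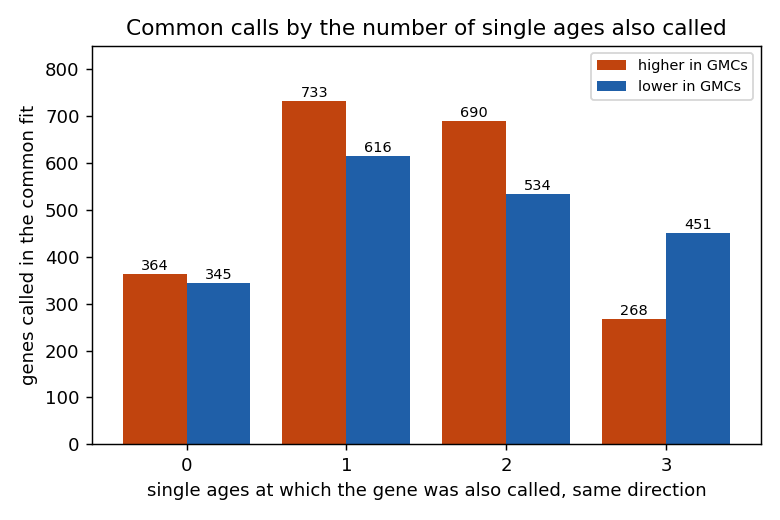
Genes called in the common test of GMCs against NBs (y axis, number of genes), sorted by the number of single ages at which the gene was also called in the same direction (x axis), with genes higher in GMCs in red and lower in blue. Among the higher genes most were called at 1 or 2 ages (733 and 690), and 451 of the lower genes were called at every age against 268 of the higher.

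A stricter group, called core genes here, held the genes whose GMC and NB libraries did not overlap in CPM at any age, with the same direction at each, and which the common test called. There were 709 core genes higher in GMCs (6.5% of the genes tested) and 991 lower (9.08%), 1700 in all. For 743 of them (6.81%), 304 higher and 439 lower, every GMC library lay on one side of every NB library, ages pooled. At every single age 706 of the 1700 were called, and 183 passed the test against 2-fold. Without NB replicate 1 of 5 h there were 880 core genes higher and 1288 lower. Without all 5 h libraries, where only 2 ages had to show no overlap, there were 1451 and 1662, and 1660 of the 1700 were among them.

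Median levels differed between the sets, with 51.9 CPM for core genes higher in GMCs, 34.5 for those lower and 14 for all genes tested. The comparisons of length and type that follow were not matched for level. The core genes higher in GMCs had a larger median length than all genes tested. Their median exon length was 2934 bases and their median span in the genome 4357 bases, against 1960 and 2532 for all genes tested, and 2089 and 2627 for core genes lower in GMCs. They were also richer in non-coding RNAs, with 88 (12.6%) against 11 (1.13%) among the lower ones and 7.52% of all genes tested, and 20% lay on the X chromosome, against 12.6% of the lower ones and 16.2% of all. Length moved with the result: when each library's trend of level with exon length was removed, 495 core genes were higher and 1037 lower by the same rule, and the common test called 1589 higher and 2213 lower.

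Both sets held different shares of the RNA. Core genes lower in GMCs took 12.8 to 13.9% of all gene counts in the 9 NB libraries and 4.31 to 7.33% in the 7 GMC libraries, so the shares in NBs were nearly constant over the ages and far from those in GMCs. The higher set took 30.2% of the summed CPM in GMCs and 11.1% in NBs, much of it the very abundant CR43283. With CR43283 left out of the set but kept in the total, it took 6.5 to 8.1% in NBs and 10.7 to 15.7% in GMCs. The shares so computed in GMCs were 10.7 to 11.3% at 1.5 h, 11.3 and 12.7% at 3 h and 15.4 and 15.7% at 5 h. CR43283 itself took 15.5 to 20.6%, 21.8 and 27.5%, and 6.94 and 11.1% of the counts in these GMC libraries. Since it stays in the total, the shares by age also depend on its level. These shares describe sets chosen on the same libraries and carry no test.

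**Figure D2:**
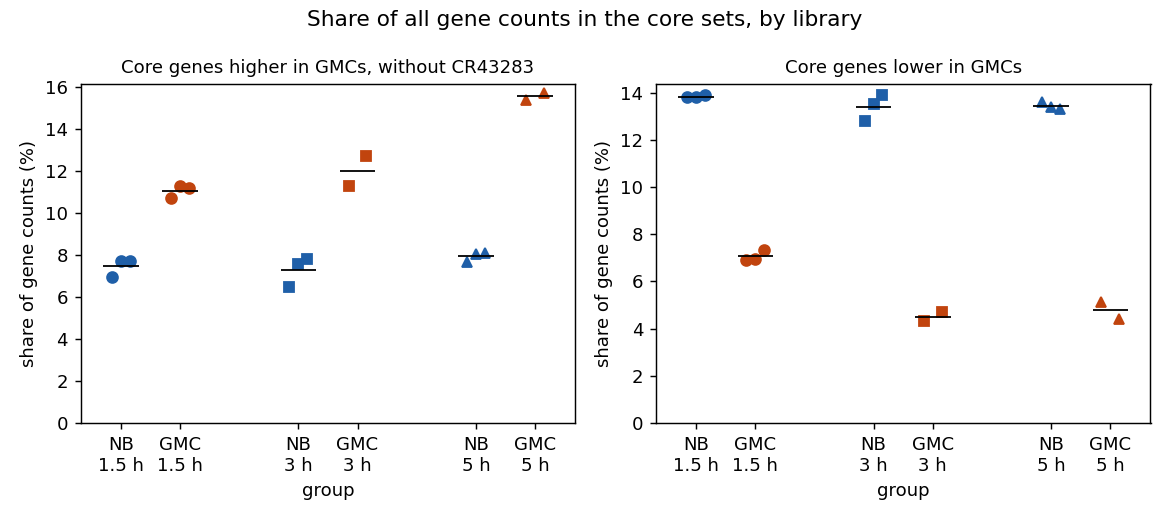
Share of all gene counts (y axis, %) taken by core genes higher in GMCs without CR43283 (left) and by core genes lower in GMCs (right), for every library by cell type and age; lines mark group means. NB libraries stay between 6.5 and 8.1% on the left and between 12.8 and 13.9% on the right, and no GMC library overlaps them.

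Among core genes with at least 20 CPM in the higher cell type, several of the largest differences were in regulators of differentiation. The zinc finger gene nerfin-1 (3L:909112-912319), which keeps neurons from reverting to NBs, ranged from 196 to 6060 CPM in GMCs (median 978) and from 1.43 to 99.7 CPM in NBs (median 8.13). No NB library reached the lowest GMC library. Its common log2 fold change was 6.57 ± 0.27 (SE; edgeR adjusted p = 8.39e-12), and the values of 6.83, 6.64 and 6.22 at 1.5, 3 and 5 h were close to each other although the libraries of each later age held more of it in both cell types. The bHLH factor Hey (2R:7995438-7998278), a Notch target in newborn neurons, was at 2.8 to 343 CPM in GMCs (median 15.7) and at 0 to 2.34 CPM in NBs (median 0.287), a log2 fold change of 6.46 ± 0.42 (adjusted p = 7.23e-09 by edgeR). The GMC libraries of 5 h stood at 343 and 171 CPM and the other 5 GMC libraries at 26 CPM or less, yet no NB library reached the lowest of them. The cell cycle inhibitor dacapo (dap, 2R:9712321-9716256), which blocks Cyclin E with Cdk2, ranged from 55 to 366 CPM in GMCs (median 146) and from 5.22 to 10.2 CPM in NBs (median 8.19). Its log2 fold change was 4.29 ± 0.26 (edgeR adjusted p = 4.95e-09) and was larger at each later age, with 3.13, 4.76 and 5.22. Without the 1.5 h libraries the value was 4.97.

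The temporal factor castor (cas, 3R:5712975-5716805) ranged from 20.7 to 3230 CPM in GMCs (median 77) and from 1.62 to 23 CPM in NBs (median 2.71). Its lowest GMC library, one of 1.5 h, thus fell just under its highest NB library, one of 5 h, although the groups did not overlap within any age. The common log2 fold change was 5.50 ± 0.45 (edgeR adjusted p = 1.33e-07), with 4.45 without the 5 h libraries and 6.28 without those of 1.5 h. The zinc finger gene mamo (X:13846116-13990527), known for temporal identity of mushroom body neurons, had the opposite course. It was at 55.6 to 115 CPM in GMCs of 1.5 h and at 8.39 and 13.9 CPM in those of 5 h, against 0.999 to 7.13 CPM in NBs. Its common value of 4.41 ± 0.62 (edgeR adjusted p = 2.71e-05) became 3.10 without the 1.5 h libraries, 5.53 without those of 5 h and 3.40 with the length trend removed. CG12605 (3.77 ± 0.55, edgeR adjusted p = 4.05e-05) overlapped over all libraries, since an NB library of 5 h reached 25.7 CPM, and its value was 2.75 without the 1.5 h libraries, 4.75 without those of 5 h, 2.71 without the age block and 4.38 with the replicate block.

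Some core genes had similar values at each age. The bHLH gene tap (3L:17359682-17361811), the fly neurogenin, was at 355 to 1270 CPM in GMCs (median 612) and at 53.9 to 162 CPM in NBs (median 74). Its log2 fold change of 2.92 ± 0.11 (adjusted p = 5.15e-12 by edgeR) had the smallest error of the 12 named higher genes, and the ages gave 3.01, 2.63 and 3.08. CG9650 (X:7137723-7241932) gave 3.53 ± 0.28 (edgeR adjusted p = 8.77e-08) and 3.59, 3.32 and 3.67 by age, with 14.8 to 34.6 CPM in GMCs and 0.94 to 4.52 CPM in NBs. The Netrin ligand NetB (X:14686038-14749376), a secreted axon guidance cue, was at 30.9 to 114 CPM in GMCs and at 7.56 to 27.1 CPM in NBs, with a log2 fold change of 2.65 ± 0.22 (adjusted p = 1.54e-07 by edgeR). In each of these genes no NB library reached the lowest GMC library. The long non-coding RNA CR43283 (3R:11247631-11256123), also named cherub and known to segregate asymmetrically in dividing NBs, was at 78800 to 357000 CPM in GMCs (median 221000) and at 4010 to 62900 CPM in NBs (median 34900). Its log2 fold change was 2.95 ± 0.28 (edgeR adjusted p = 5.96e-07), with a wider range of 2.27, 2.75 and 3.96 by age, and the NB libraries of 5 h, at 4010 to 11200 CPM, were the lowest.

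**Figure D3:**
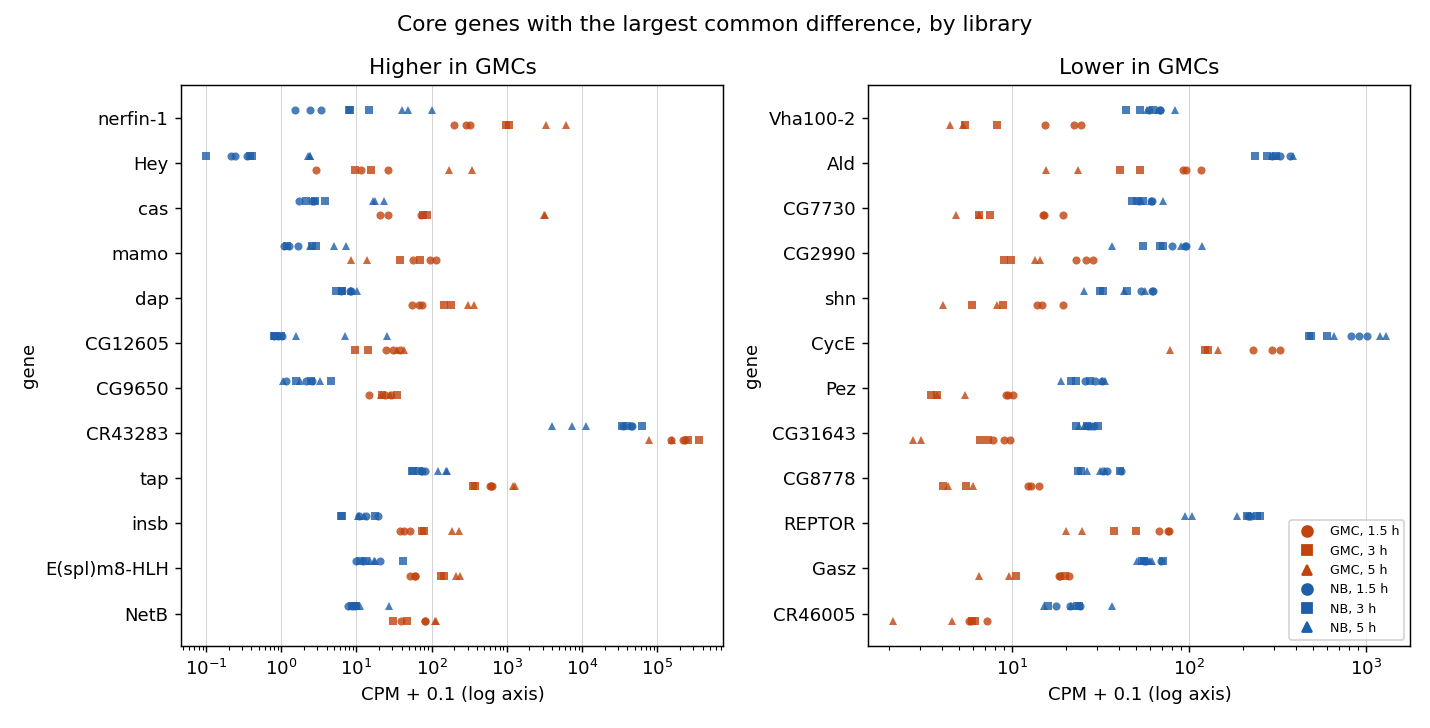
CPM plus 0.1 on a log axis (x axis) of the 12 core genes with the largest common difference each way (y axis), one point per library, GMCs in red and NBs in blue, with the marker shape giving the age. For nerfin-1 the GMC libraries lie between 196 and 6060 CPM and the NB libraries between 1.43 and 99.7 CPM, and for Vha100-2 they lie between 4.35 and 24.4 and between 43.6 and 83.1 CPM.

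Among the genes lower in GMCs, metabolic and growth genes stood beside cell cycle genes. Vha100-2 (3R:18390323-18399169), a membrane subunit of the proton pump V-ATPase, was at 4.35 to 24.4 CPM in GMCs (median 8.14) and at 43.6 to 83.1 CPM in NBs (median 62.2). Its log2 fold change was -2.65 ± 0.28 (edgeR adjusted p = 1.51e-06), and -3.41 without the 1.5 h libraries. Aldolase (Ald, 3R:26254069-26261591), a glycolytic enzyme, was at 15.4 to 117 CPM in GMCs (median 52.4) and at 235 to 385 CPM in NBs (median 307), a log2 fold change of -2.62 ± 0.29 (adjusted p = 2.21e-06 by edgeR), and -3.29 without the 1.5 h libraries. In both genes the NB libraries of the 3 ages overlapped each other, while the GMC libraries of 5 h were the lowest of all. Cyclin E (CycE, 2L:15727581-15748150), which drives entry into S phase, was at 77.6 to 325 CPM in GMCs (median 145) and at 476 to 1290 CPM in NBs (median 819), a log2 fold change of -2.25 ± 0.23 (adjusted p = 1.36e-06 by edgeR). REPTOR, a transcription factor that TORC1 keeps inactive, was at 20.1 to 76.3 CPM in GMCs and at 94 to 250 CPM in NBs (-2.11 ± 0.18, edgeR adjusted p = 1.57e-07).

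The remaining genes of the 12 largest lower differences were CG7730 (-2.61 ± 0.22), CG2990 (-2.32 ± 0.22), the Dpp pathway factor shn (-2.26 ± 0.21), the tyrosine phosphatase Pez (-2.24 ± 0.21), CG31643 (-2.16 ± 0.20), CG8778 (-2.13 ± 0.21), the piRNA pathway gene Gasz (-2.10 ± 0.19) and the non-coding CR46005 (-2.10 ± 0.25). Their edgeR adjusted p-values lay between 1.47e-07 (CG7730) and 4.95e-06 (CR46005). All 12 kept every GMC library below every NB library. CG7730 was at -3.21 without the 1.5 h libraries and shn at -2.90 with the length trend removed. Of the exons of CR46005, 32.38% lie over another gene, and whether reads were counted by strand is not given, so its value may hold reads of that gene.

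Of 18 tested genes of GMC fate and differentiation, 12 were higher in GMCs, 1 was lower and 5 were not called, with a median of 2.08 against 0.039 for all genes tested. Core genes made up 8 of the 12, where 6.5% of all genes tested were core genes higher in GMCs and 9.08% core genes lower. The difference of 10 of the 18 members changed between ages, beside 8.16% of all genes tested. These shares serve for the lists below as well. Among the higher members chn gave 4.66, 2.40 and -1.84 by age and jim 4.45, 2.91 and -0.33. The gene scrt is counted both here and in the list of NB identity. The members higher in GMCs included prospero (pros, 3R:11328480-11407627), at 1060 to 6760 CPM in GMCs (median 2760) and 460 to 1010 CPM in NBs (median 600). No libraries overlapped, but the difference shrank with age: the log2 fold change was 3.04 at 1.5 h, 2.30 at 3 h and 0.60 at 5 h (edgeR adjusted p = 0.115 at 5 h), with a common value of 2.13 ± 0.30 (edgeR adjusted p = 2.99e-05). The common value was 2.72 without the 5 h libraries, 1.47 without those of 1.5 h and 1.23 with the length trend removed. The transcriptional regulator taranis (tara) was at 160 to 455 CPM in GMCs and at 21.6 to 66 CPM in NBs, a log2 fold change of 2.59 ± 0.21 (adjusted p = 9.92e-08 by edgeR). The exception was the tumour suppressor l(3)mbt, lower in GMCs with a value of -1.04 (edgeR adjusted p = 0.0012). The Notch inhibitor numb had -0.11 (edgeR adjusted p = 0.621).

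The 20 genes of NB identity and self-renewal split, with 7 higher in GMCs, 9 lower and 4 not called (median -0.22), beside 18.8% higher and 17.8% lower over all genes. With the length trend removed 4 members were higher. The medians by age were -0.51, -0.29 and 0.15, and the difference of 9 members changed between ages. Deadpan (dpn, 2R:8228971-8232330), the Hes family repressor that marks NBs, was at 36 to 112 CPM in GMCs (median 45.6) and at 93.6 CPM or more in NBs (median 184). The groups did not overlap within an age, and the log2 fold change was -1.53 ± 0.16 (edgeR adjusted p = 1.48e-06). Of the exons of dpn, 59.28% lie over another gene. The transcription factor grainy head (grh) was also lower (-0.96 ± 0.15, edgeR adjusted p = 5.88e-05; 19.13% of its exons lie over another gene), as were the transcriptional cofactor nab (-1.01 ± 0.13, edgeR adjusted p = 1.02e-05), and the RNA-binding protein Syp (-1.26, edgeR adjusted p = 0.00014). The proneural gene asense (ase), whose regulatory region drives the sorting marker, was higher in GMCs by 1.03 ± 0.19 (edgeR adjusted p = 0.000452), with 0.16, 1.38 and 1.71 by age. Miranda (mira) was at 1390 to 1570 CPM in GMCs of 1.5 h and at 339 and 434 CPM in those of 5 h, against 936 to 1760 CPM in NBs. Its common log2 fold change of -0.71 ± 0.23 (adjusted p = 0.0233 by edgeR) was no longer called without the 5 h libraries, without either GMC library of 5 h, without the 3 h libraries, without the age block or with the replicate block.

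Other genes of that list were higher in GMCs. The Snail superfamily genes scratch (scrt) and escargot (esg) had log2 fold changes of 2.32 ± 0.30 (edgeR adjusted p = 1.4e-05) and 1.65 (edgeR adjusted p = 0.00227). The value of esg was mostly that of 5 h, with 0.43, 1.14 and 3.57 by age. For scrt the levels were 77.4 to 781 CPM in GMCs and 17.1 to 65.5 CPM in NBs, and the value was 1.68 without the 5 h libraries. The BTB zinc finger gene chinmo, which marks early-born neurons, gave 1.83 (edgeR adjusted p = 0.000146), again with the largest value at 5 h (0.91, 1.40 and 3.34). Another Snail family gene of the list, worniu (wor), had no common call, and its values by age are given with the genes that turned sign.

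Of 22 tested genes of the Notch pathway and its targets 11 were higher in GMCs, 9 of them core genes, 1 was lower and 10 were not called (median 0.39); 3 were lower without the 5 h libraries. The receptor N was at 434 to 957 CPM in GMCs (median 536) and at 251 to 722 CPM in NBs (median 345). These ranges overlapped over all ages, not within an age, and the log2 fold change of 0.64 ± 0.14 (adjusted p = 0.00144 by edgeR) was 0.08 with the length trend removed, where the call was lost, as it was without the age block. The ligand Delta (Dl) was higher by 1.19 (edgeR adjusted p = 4.32e-05). Both sides of the nuclear switch were higher: Su(H), the DNA-binding factor of the pathway, by 1.22 ± 0.17 (edgeR adjusted p = 2.75e-05), and Hairless (H), its corepressor, by 1.98 ± 0.16 (edgeR adjusted p = 1.33e-07). Hairless stood at 325 to 781 CPM in GMCs and at 120 to 193 CPM in NBs, without overlap. The protease kuzbanian (kuz), which cleaves the receptor, gave 1.24 ± 0.15 (edgeR adjusted p = 4.86e-06). The gene insb was outside the list and among the largest differences. It was at 38.3 to 231 CPM in GMCs and 6.15 to 19.5 CPM in NBs (2.85 ± 0.33, edgeR adjusted p = 4.22e-06). Its value was 3.60 without the 1.5 h libraries and 2.22 without those of 5 h.

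The targets of Notch in the E(spl) complex did not move as one. E(spl)m8-HLH was at 51.2 to 238 CPM in GMCs and at 9.83 to 41.4 CPM in NBs, a log2 fold change of 2.78 ± 0.28 (adjusted p = 1.12e-06 by edgeR). E(spl)m7-HLH (2.55, edgeR adjusted p = 0.000217), E(spl)mbeta-HLH (1.72, edgeR adjusted p = 0.000386) and E(spl)m3-HLH (1.03, edgeR adjusted p = 0.0287) were higher too. The difference was largest at 5 h in E(spl)m7-HLH (1.87, 1.04 and 4.53 by age) and E(spl)mbeta-HLH (0.77, 1.18 and 3.38). E(spl)mgamma-HLH, the member best known in NBs, was the lower gene of the list: at 19.7 to 111 CPM in GMCs (median 26.6) and at 42.1 to 119 CPM in NBs (median 76.6), its log2 fold change was -1.07 (edgeR adjusted p = 0.0126). By age its values were -1.70, -1.88 and 0.38. The value of E(spl)mdelta-HLH was -0.26 (edgeR adjusted p = 0.675).

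Neuron markers were called higher in GMCs for 20 of 26 members and lower for 1 (median 1.98), but only 5 of the higher ones were core genes and the difference of 16 members changed between ages. The medians by age were 3.28 at 1.5 h and -0.43 at 5 h, with that of 3 h between them, and 7 members were called higher without the 1.5 h libraries and 7 without those of 3 h. The active zone gene brp gave 4.61, 2.91 and -0.79 by age and the synaptic vesicle gene Syn 5.35, 5.51 and -0.68. Other synaptic members did not follow this: the calcium channel gene cac gave 0.77, 1.19 and 2.98 and unc-13 gave 0.97, 1.31 and 1.66, both core genes. Of the Elav family of RNA-binding proteins, elav and fne were called higher at every age, whereas Rbp9 gave 0.39, -0.18 and -1.90 and had no common call (-0.40, edgeR adjusted p = 0.26). The gene elav was at 536 to 5290 CPM in GMCs (median 923) and at 179 to 534 CPM in NBs (median 279), without overlap, with 1.40, 1.99 and 3.61 by age and a common log2 fold change of 2.28 ± 0.27 (adjusted p = 4.59e-06 by edgeR). The common value of elav was 1.66 without the 5 h libraries, and 34.22% of its exons lie over another gene. Its paralogue fne gave 1.83 ± 0.23 (edgeR adjusted p = 1.09e-05), with 176 to 371 CPM in GMCs and 29.7 to 143 CPM in NBs. The lower member was the vesicle chaperone Csp, at 276 to 442 CPM in GMCs and 579 to 749 CPM in NBs (-0.88 ± 0.09, edgeR adjusted p = 1.42e-06).

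Axon guidance and adhesion genes showed 22 of 32 members higher in GMCs and 10 not called (median 0.97), 13 of them core genes, and 14 members were higher without the 1.5 h libraries. Medians by age were 0.81, 0.93 and 0.88, but the difference of 10 members changed between ages, and in both directions: robo3 gave 6.41, 5.90 and -1.50 and Con 5.25, 2.35 and -1.50, whereas Nrt gave 0.78, 1.93 and 2.41. Beside NetB, the adhesion gene CadN was at 55.7 to 481 CPM in GMCs and at 11.5 to 85.7 CPM in NBs, a log2 fold change of 2.55 ± 0.24 (adjusted p = 5.04e-07 by edgeR) that was 1.87 with the length trend removed. The receptor Dscam1, known for its many splice forms, gave 1.86 ± 0.22 (edgeR adjusted p = 5.26e-06) and 1.00 with the length trend removed. Neurotactin (Nrt), an adhesion molecule of young neurons, gave 1.66 ± 0.21 (edgeR adjusted p = 9.41e-06), and 21.84% of its exons lie over another gene. The Netrin receptor fra had a value of 0.10 (edgeR adjusted p = 0.558) and robo1 one of 0.05 (edgeR adjusted p = 0.873).

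Of the genes of DNA replication and G1/S, the common test called 39 of 46 members lower in GMCs and left 7 uncalled, with a median log2 fold change of -0.76, and 24 were core genes. Apart from CycE, the licensing factor double parked (dup) was at 59.7 to 343 CPM in GMCs (median 161) and at 388 to 626 CPM in NBs (median 534). All GMC libraries lay below all NB libraries, and the log2 fold change of dup was -1.72 ± 0.22 (edgeR adjusted p = 9.63e-06), with -0.89, -1.81 and -2.75 by age. The origin recognition subunit Orc2 gave -1.75 ± 0.21 (edgeR adjusted p = 6.96e-06), the polymerase alpha subunit DNApol-alpha60 -1.45 ± 0.15 (edgeR adjusted p = 1.36e-06) and the helicase subunit Mcm2 -1.14 ± 0.11 (edgeR adjusted p = 5.96e-07). The list's medians by age were -0.58, -0.92 and -1.18. The retinoblastoma gene Rbf had 0.34 (edgeR adjusted p = 0.0692) and the kinase gene Cdk2 had 0.11 (edgeR adjusted p = 0.69).

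Mitosis and cytokinesis genes, in contrast, were split. Of 57 members 11 were higher in GMCs, 15 lower and 31 not called, with a median of -0.11, the share of higher members being near the 18.8% of all genes and that of lower members above the 17.8%; 9 were lower without the 1.5 h libraries. The list's medians by age were -0.25, -0.19 and 0.35. Lower members included activators of mitosis. Cyclin B3 (CycB3) was at 110 to 286 CPM in GMCs (median 224) and at 536 to 945 CPM in NBs (median 773), a log2 fold change of -1.98 ± 0.13 (adjusted p = 5.65e-09 by edgeR). The phosphatase string (stg, Cdc25), which activates the mitotic kinase, was at 77.1 to 233 CPM in GMCs (median 194) and at up to 808 CPM in NBs (median 689) (-1.97 ± 0.17, edgeR adjusted p = 2.48e-07). Neither gene overlapped between the cell types at any pairing of libraries. The anaphase activator fzy (-1.15 ± 0.13, edgeR adjusted p = 4.34e-06) and the microtubule gene msps (-1.16 ± 0.14, edgeR adjusted p = 6.22e-06) were lower as well. Among the higher members were the mitotic kinase Cdk1 itself (0.68, edgeR adjusted p = 0.00382), the cohesin subunit SMC1 (1.18, edgeR adjusted p = 7.15e-05), the condensin subunit Cap-G (1.33, edgeR adjusted p = 0.000532) and the anillin gene scra (0.82, edgeR adjusted p = 6.19e-05).

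Glycolysis genes were lower in GMCs for 11 of 12 members, with a median of -1.14 and with medians of -0.62, -1.13 and -1.78 by age. Beside Ald, the entry enzyme Hexokinase A (Hex-A) was at 22.9 to 64.6 CPM in GMCs and at 95.6 to 242 CPM in NBs (-2.03 ± 0.23, edgeR adjusted p = 3.96e-06). Glyceraldehyde 3-phosphate dehydrogenase 2 (Gapdh2) was at 93.2 to 174 CPM in GMCs and at 290 to 468 CPM in NBs (-1.42 ± 0.15, edgeR adjusted p = 1.21e-06). Phosphoglucose isomerase (Pgi) gave -1.20 ± 0.13 (edgeR adjusted p = 2.36e-06), and Pgk was the member without a call (-0.26, edgeR adjusted p = 0.152). In each of the 3 called enzymes given here every GMC library lay below every NB library. Of 17 genes of the TCA cycle 9 were lower and 1 higher (median -0.39). Citrate synthase (kdn) gave -1.27 ± 0.17 (edgeR adjusted p = 2.01e-05) and pyruvate carboxylase (PCB) -1.29 ± 0.17 (edgeR adjusted p = 1.19e-05), and the higher member was CG7430 (0.29, edgeR adjusted p = 0.0454).

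Nucleotide synthesis genes were lower for 19 of 23 members and not called for 4 (median -0.62), with 12 core genes, some of which also stand in the replication list. The deoxynucleoside kinase dnk was at 52.9 to 108 CPM in GMCs and at 133 to 214 CPM in NBs (-1.35 ± 0.14, edgeR adjusted p = 9.13e-07). The purine enzymes ade5 (-1.28 ± 0.15, edgeR adjusted p = 4.44e-06), ade2 (-0.96 ± 0.11, edgeR adjusted p = 5.36e-06) and Prat (-0.96 ± 0.12, edgeR adjusted p = 6.18e-06) were lower too. Of 17 V-ATPase subunits 11 were lower and 6 not called (median -0.82); 2 were higher without the 5 h libraries. Vha68-2, the catalytic subunit, was at 58.9 to 107 CPM in GMCs and at 182 to 233 CPM in NBs (-1.46 ± 0.10, edgeR adjusted p = 2.32e-08), and the regulatory subunit VhaSFD gave -1.47 ± 0.12 (edgeR adjusted p = 1.47e-07).

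Genes of ribosome biogenesis and aminoacyl-tRNA synthetases were lower or not called. Of 26 ribosome biogenesis genes 7 were lower and 19 not called, with a median of -0.08, against 17.8% lower and a median of 0.039 over all genes. The large subunits of RNA polymerase I were among the lower ones, RpI1 by -1.11 ± 0.15 (edgeR adjusted p = 2.64e-05) and RpI135 by -0.65 ± 0.12 (edgeR adjusted p = 0.000301). Of 19 aminoacyl-tRNA synthetases 9 were lower (median -0.30), a larger share than over all genes, but at most 1 was called without the 1.5 h libraries or without the age block, and 5 without the 3 h libraries. Insulin and TORC1 genes were balanced, with 6 of 25 higher and 6 lower (median 0.01), beside 18.8% and 17.8% of all genes. Their higher members included the insulin receptor InR (0.91, edgeR adjusted p = 0.00532; 0.36, 0.52 and 1.94 by age). Beside REPTOR, the translation repressor Thor (4E-BP) was lower, at 0.723 to 5.5 CPM in GMCs and 1.87 to 39 CPM in NBs (-2.39 ± 0.38, edgeR adjusted p = 8.75e-05), with overlap between the cell types. The amino acid transporter path gave -1.02 ± 0.12 (edgeR adjusted p = 6.64e-06). Without the age block 3 members were higher and 3 lower, without the 3 h libraries 3 were lower, and with the length trend removed 3 were higher.

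Among 22 genes of asymmetric division 5 were higher in GMCs, 6 lower and 11 not called (median -0.06). Over all genes tested the shares were 18.8% higher and 17.8% lower. The apical polarity genes par-6 and aPKC were lower. For par-6 the levels were 99.1 to 148 CPM in GMCs and 271 to 462 CPM in NBs, without overlap (-1.46 ± 0.12, edgeR adjusted p = 9.92e-08), and aPKC gave -0.80 ± 0.11 (edgeR adjusted p = 1.66e-05). The kinase aurA (-0.89 ± 0.13, edgeR adjusted p = 3.93e-05) and the apical adaptor insc (-1.01, edgeR adjusted p = 0.000123) were lower as well. Galphai, the G protein subunit of the spindle orientation complex, was higher, at 447 to 840 CPM in GMCs and 242 to 354 CPM in NBs (1.07 ± 0.13, edgeR adjusted p = 8.49e-06). Counts for the list moved with the settings: 1 was higher and 10 lower with the length trend removed, 3 were higher without the 3 h libraries and 2 without those of 5 h.

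Genes known from other NB lineages were also detected. Of 10 type II lineage markers 7 were higher in GMCs and 3 not called (median 1.02), and 4 were higher without the 3 h libraries. The summed level of btd, opa, ham and erm was 31.1 to 83.2 CPM in GMCs and 9.89 to 21.9 CPM in NBs. Hamlet (ham), a zinc finger gene of intermediate progenitors that is also used in sensory lineages, was at 4.16 to 23.6 CPM in GMCs and 0.229 to 2.04 CPM in NBs (4.03 ± 0.31, edgeR adjusted p = 7.74e-08), with 4.09, 3.96 and 4.02 by age. The factor odd paired (opa) gave 2.05 ± 0.25 (edgeR adjusted p = 5.61e-06) and 2.65 without the 1.5 h libraries, whereas the type II identity gene btd had 0.46 (edgeR adjusted p = 0.277). Of 12 optic lobe markers 7 were higher and 2 lower (median 0.83), the share of lower members being near the 17.8% of all genes. The lower ones were the paralogues dan (-1.06 ± 0.14, edgeR adjusted p = 1.8e-05) and danr (-1.53 ± 0.13, edgeR adjusted p = 1.54e-07). Of 15 temporal patterning genes 3 were higher (cas, mamo and chinmo), 3 lower (grh, Syp and dan) and 9 not called, shares near those of all genes; 5 were higher and 5 lower without the 5 h libraries, 5 were higher without NB replicate 3 or GMC replicate 1 of 5 h, and 6 were lower with the length trend removed.

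Of 14 glia markers 5 were higher, 2 lower and 7 not called (median 0.64), beside 18.8% higher and 17.8% lower over all genes. The switch gene gcm, which starts gliogenesis, was at 2.8 to 26.2 CPM in GMCs and 0.428 to 2.18 CPM in NBs (2.50 ± 0.34, edgeR adjusted p = 1.96e-05), and 1.90 without the 5 h libraries. Its effector repo had a value of 0.51 (edgeR adjusted p = 0.378) at 4.79 CPM or less. The sugar transporter Tret1-1 was lower (-1.88 ± 0.29, edgeR adjusted p = 7.53e-05). Of 17 markers of hemocytes, fat body, trachea and muscle, 1 was higher and 1 lower, Mhc and Hml, smaller shares than over all genes. Both stood at 19.9 CPM or less in every library. The call of Mhc was lost without the 1.5 h libraries and without those of 3 h, and the value of Hml was -1.51, or -2.10 with the length trend removed.

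**Figure D4:**
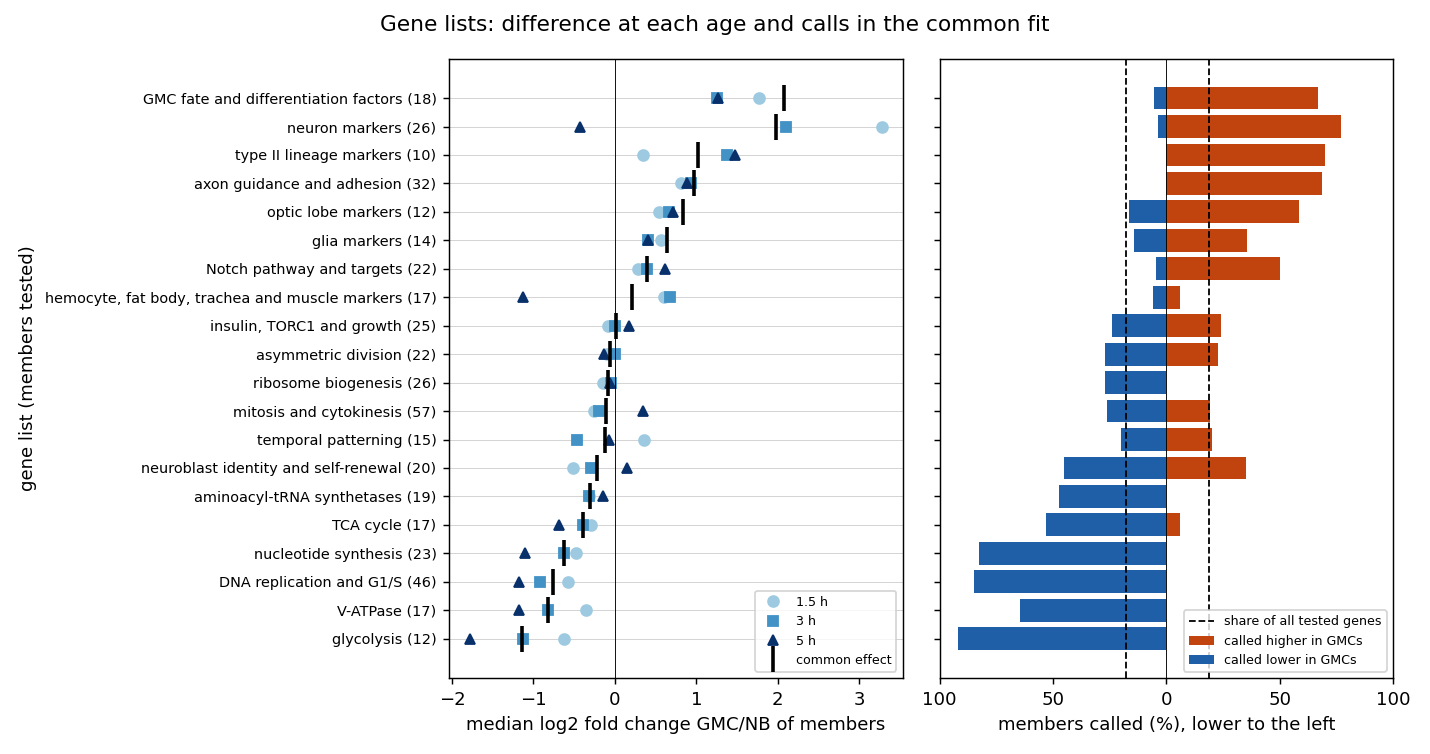
Left, median log2 fold change of GMCs over NBs among the tested members of each gene list (x axis) at 1.5, 3 and 5 h (symbols) and in the common test (bars); right, percent of members called lower (to the left) and higher (to the right) in the common test, with dashed lines at the shares of all genes tested, 17.8% and 18.8%. Glycolysis (common median -1.14) and DNA replication (-0.76) lie on the lower side at every age, and neuron markers move from 3.28 at 1.5 h to -0.43 at 5 h.

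Pooling the ages brought out genes with small, even differences that no single age could call. There were 709 such genes, 364 higher and 345 lower, and 91 of them were core genes. The translation initiation factor eIF-2beta was at 176 to 275 CPM in GMCs (median 250) and at 93.3 to 243 CPM in NBs (median 124). Its values were 0.81, 0.80 and 0.82 by age (edgeR adjusted p = 0.0597, 0.08 and 0.0575), and 0.81 ± 0.17 in common (edgeR adjusted p = 0.00102). The chaperone Calr of the endoplasmic reticulum gave 0.59, 0.64 and 0.59, and 0.61 ± 0.13 in common (edgeR adjusted p = 0.00125). On the lower side the nuclear pore gene Nup154 gave -0.68, -0.72 and -0.60, and -0.67 ± 0.14 in common (edgeR adjusted p = 0.00139), and adenosine kinase (AdenoK) -0.50, -0.59 and -0.52, and -0.53 ± 0.12 in common (edgeR adjusted p = 0.00149). The adjusted p-values of the other named genes of this kind lay between 0.00154 (CG2278) and 0.00592 (CG33332). The calls of Rip11 (0.36 ± 0.09) and CG17931 (0.54 ± 0.14) were lost with the replicate block, that of Rip11 also with the length trend removed, and that of CG17931 also without the 1.5 h libraries. Of the exons of CG17931 37.89% and of those of Nup154 19.87% lie over another gene. The call of l(2)k09022 (-0.62 ± 0.15) was lost without the age block.

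One common value did not describe every gene. The difference between GMCs and NBs changed between ages for 890 genes, or 8.16% of those tested (edgeR F-test of the interaction, adjusted p under 0.05). Of these 492 also had a common call and 398 did not. Among the 1700 core genes 187 changed (11%). In 88 of the 93 that were higher in GMCs the difference was larger at 5 h than at 1.5 h, and so it was in 86 of the 94 that were lower. The median log2 fold change of all core genes was 0.777, 1.149 and 1.292 by age for the higher set and -0.706, -1.019 and -1.122 for the lower. The size rose at each step of age in 372 of the 709 and in 403 of the 991. The core rule asks for no overlap at every age, so it leaves out genes whose difference was absent or turned at an age. Left out were, for example, brp (4.61, 2.91 and -0.79 by age) and jar (-0.06, 0.83 and 2.25). These counts and medians thus describe the core set and not the course of all genes that changed. Without the 5 h libraries edgeR called 0 genes as changed between 1.5 and 3 h, with 1074 genes at an unadjusted p under 0.05, and without those of 1.5 h it called 16.

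Across all genes the log2 fold changes of 1.5 and 3 h had a Pearson correlation of 0.70, those of 3 and 5 h one of 0.32 and those of 1.5 and 5 h one of 0.14 (10913 genes). Among the 5099 genes whose mean reached 20 CPM in the higher cell type the values were 0.86, 0.66 and 0.45. The ages share no library but each has its own run, and genes are not independent, so no p-value is given. The same sign at all 3 ages was seen for 3669 of the genes with a common call (91.7%) and for 5703 of all genes tested (52.3%). The common test favours genes whose signs are alike, so the first share is a description.

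**Figure D5:**
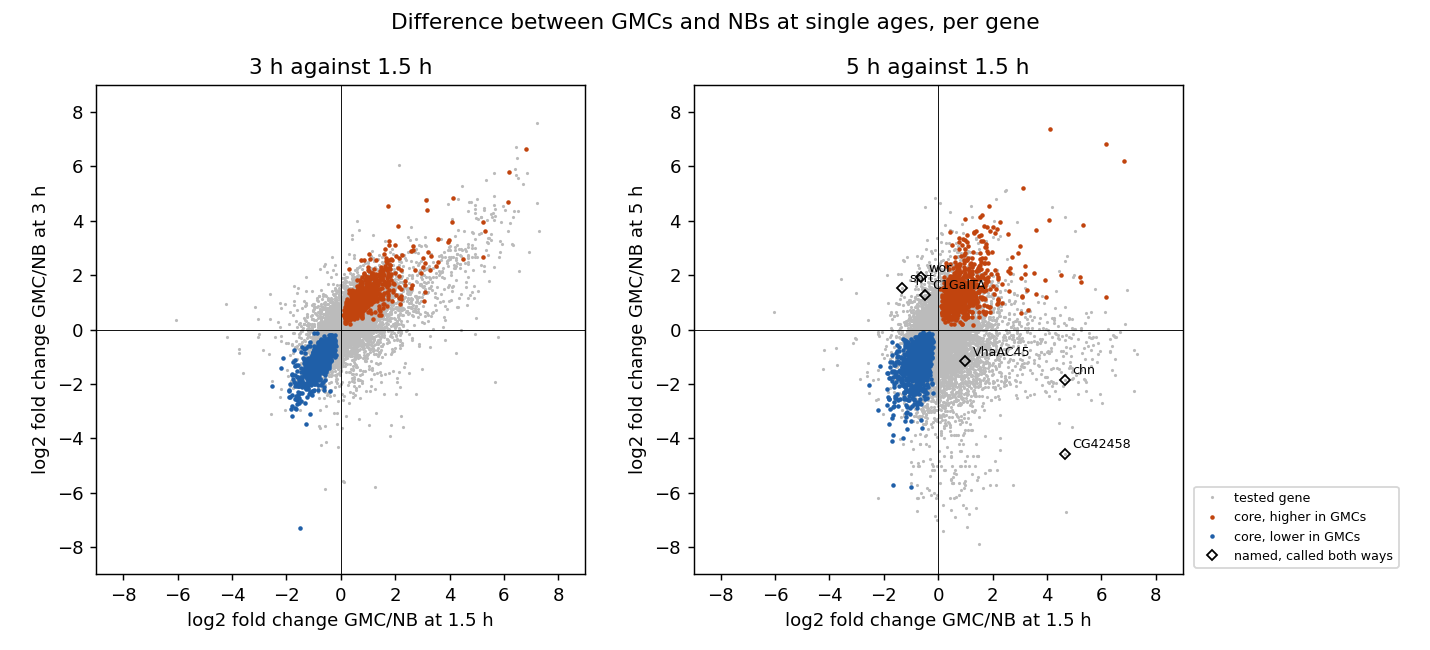
Log2 fold change of GMCs over NBs at 3 h (left, y axis) and 5 h (right, y axis) against that at 1.5 h (x axis), one point per tested gene, with core genes coloured and the named genes called in opposite directions at different ages marked by diamonds. The cloud is narrower on the left (Pearson correlation 0.70) than on the right (0.14), where many genes lie between 2 and 6 at 1.5 h but near or under 0 at 5 h; core genes stay in their quadrants by their definition.

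In 104 genes the difference was called in opposite directions at different ages, and all 104 were among the 890. Of these 48 were higher in GMCs at 1.5 h and lower at 5 h, and 43 the reverse; 38 turned between 3 and 5 h and 1 between 1.5 and 3 h, a gene counting under each pair of ages at which it was called both ways. The common test called 9 of the 104, each of them higher in GMCs. The Snail family gene worniu (wor, 2L:15423297-15425580), an NB factor, was at 336 to 430 CPM in NBs and 230 to 257 CPM in GMCs of 1.5 h, at 185 to 230 and 338 to 384 CPM at 3 h, and at 176 to 265 and 810 to 849 CPM at 5 h. It was thus lower in GMCs at 1.5 h (log2 fold change -0.64, edgeR adjusted p = 0.013) and higher at 3 h (0.75, edgeR adjusted p = 0.00741) and 5 h (1.92, edgeR adjusted p = 1.87e-06). Its common value was 0.61 ± 0.28 (edgeR adjusted p = 0.0941), 1.33 without the 1.5 h libraries and -0.01 without those of 5 h.

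The glycosyltransferase C1GalTA and the gene sprt turned the same way. C1GalTA gave -0.48, -0.66 and 1.29 by age, with 185 and 189 CPM in GMCs of 5 h and 96.7 CPM or less in every other library. Its common value was 0.04 ± 0.23 (edgeR adjusted p = 0.919), and -0.56 without the 5 h libraries, where it was called. For sprt the values were -1.33, -0.99 and 1.54, and its common value of -0.29 became -1.19, with a call, without those libraries. VhaAC45, an accessory subunit of the V-ATPase, turned the other way, with 1.00, 0.31 and -1.16, and without the 5 h libraries it was called higher (0.70). The zinc finger gene chn gave 4.66, 2.40 and -1.84, with 33.8 to 59.2 CPM in GMCs of 1.5 h and 2.73 and 3.86 CPM in those of 5 h. Its common call (2.44 ± 0.80, edgeR adjusted p = 0.0226) was lost in 6 alternatives, among them without the 1.5 h libraries (0.62). CG42458 gave 4.68, 2.49 and -4.57, at 8.04 CPM or less in every library.

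Other named genes changed between ages too, and in jar, Rbp6 and Dcr-2 the sign of the value was not the same at every age. CG7372 gave 0.05, 0.81 and 2.43 and the unconventional myosin gene jar (Myosin VI) -0.06, 0.83 and 2.25. In both the 2 GMC libraries of 5 h stood alone, CG7372 at 2330 and 2930 CPM against 463 to 916 CPM elsewhere, and jar at 762 and 880 CPM against 81.6 to 205 CPM. The common call of jar (0.95 ± 0.25, edgeR adjusted p = 0.00661) was lost without the 5 h libraries (0.34) and with the length trend removed, and was 1.55 without those of 1.5 h. The common value of CG7372 was 1.04 ± 0.26 (edgeR adjusted p = 0.00425), 0.39 without the 5 h libraries and 1.64 without those of 1.5 h. The gene sofe gave 0.29, 1.44 and 2.34 and CG1902 gave -0.95, -0.82 and -2.81. The RNA-binding gene Rbp6 went from 65.4 to 137 CPM in GMCs of 1.5 h to 29.6 and 41.2 CPM at 3 h and 3.54 and 7.47 CPM at 5 h, against 1.76 to 8.86 CPM in NBs. Its values were 5.54, 3.28 and -0.13, and its common call (3.40 ± 0.68, edgeR adjusted p = 0.000674) was lost without the 1.5 h libraries (1.78). Dcr-2 itself gave 1.24, 2.24 and -0.85, and its common call (1.04 ± 0.35, edgeR adjusted p = 0.0273) was lost in 12 alternatives.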

How the data were processed

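The deposited files hold, per library, a whole-number count of reads for 16364 genes, not normalized, followed by 5 summary entries that were left out. The submitters' processing notes name HTSeq 0.6.1, TopHat2 2.1.1, BWA 0.7.12, DESeq2 1.12.4 and bedtools 2.26.0 without their roles. Build, strand setting and use of molecular barcodes are not given here, and uncollapsed PCR copies would make counts less independent. The authors' deposited comparison tables, which hold a mean signal over the 16 libraries (counts over size factors), served only for gene symbols, positions and a check of that mean. Positions are those of genome release 6, matched to Ensembl release 115 for 16086 genes.

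The counts were fitted with edgeR 4.0.16 (R 4.3.3, limma 3.58.1): quasi-likelihood, TMM scaling, filterByExpr by group (minimum count 10, total 15; 10913 genes kept, 5451 removed), age and cell type as terms, two-sided, Benjamini-Hochberg adjusted p under 0.05. glmTreat tested against 2-fold. A fit of the 6 groups gave each age and an F-test of the change between ages. SE is the log2 fold change over the root of F. The fits were tested on simulated data. DESeq2 1.42.0, other scalings, filters, blocks, weights, a length correction and left-out libraries and ages were alternatives.

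Members, gene lists, rules and tests were chosen with earlier results of these data known, and some list members were reassigned by function after the files were read. Named genes were, first, the 12 largest core differences each way with a mean of at least 20 CPM in the higher cell type. To these were added the 6 smallest adjusted p each way among common calls made at no age, the 6 smallest p of change between ages among genes called both ways and the 6 among the others, up to 4 members per list, and 11 fixed genes. This gave 122 genes, most of which the text gives; list members outside them were chosen after their values were seen.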

Additional observations from a re-analysis of the deposited data

Results flagged for a closer look

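Results appear here because the difference between GMCs and NBs changed between the ages in a test of that change (edgeR F-test of the interaction, adjusted over all genes). Groups of 2 or 3 libraries are too small for the test of a single deviating library. Over all genes 890 changed. Each age has its own run and Dcr-2 leaves the genotype at 5 h uncertain, so age, run and genotype cannot be told apart.

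The smallest adjusted p among the named genes was 0.000213, shared by CG42458, wor and CG7372. It was 0.000316 for C1GalTA, VhaAC45, Rbp6 and sofe, 0.00038 for CG1902 and jar, 0.000549 for sprt and dup, and 0.000629 for dap and chn. In wor, C1GalTA and sprt the difference went from negative at 1.5 h to positive at 5 h, and in CG42458, VhaAC45 and chn the other way.

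Metabolic genes followed with Ald at 0.000668, kdn at 0.0031, Vha100-2 at 0.00311, Gapdh2 at 0.012 and PCB at 0.0206, each with a lower value at 5 h than at 1.5 h. The S phase gene CycE had 0.0378, and the uncharacterised CG7730 and CG31643 had 0.00406 and 0.012, in the same direction.

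Among genes of NB and GMC fate the values were 0.000719 for mira, 0.000982 for mamo, 0.00329 for pros, 0.00345 for ase, 0.00359 for cas, 0.00724 for insb, 0.0201 for tara and 0.0217 for scrt. For pros and mamo the difference was largest at 1.5 h, and for cas, insb and scrt at 5 h. Genes of neurons and adhesion gave 0.00174 for elav, 0.00674 for Nrt and 0.0211 for Dscam1, all with the largest difference at 5 h. The lineage gene opa gave 0.00992, and the glial gene repo, at 4.79 CPM or less, gave 0.0428.

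The genes that transgenes carry gave 0.000682 for w and 0.00197 for Dcr-2. For w the log2 fold changes were 0.71, 1.97 and -1.24 by age, and its common value was 0.64 ± 0.35 (edgeR adjusted p = 0.163), 1.28 without the 5 h libraries and -0.09 without those of 3 h.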

How the results depend on the processing

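Among genes called both in the main test and in an alternative, the sign differed for 3 genes with the length trend removed. It differed for none of the shared calls in the other alternatives run. The alternatives reuse most or all of the same libraries, which favours like signs, and calls that were lost were not compared for sign. Under median-ratio scaling 3960 of the 4001 were called again, under DESeq2 3985, with the length trend removed 3353, without the age block 2930. Fewest were called again without the 1.5 h libraries, 2546, and without those of 3 h, 2555. Other counts moved too. Past 2-fold, 81 higher and 35 lower were called without the age block, and 258 and 160 with the 3 ages weighted equally. DESeq2 called 1929 genes as changed between ages.

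Leaving out an age also means fewer libraries. Without 1.5 h 1295 genes were higher, 1129 core genes were higher and 16 changed between ages. Without 3 h 2616 were called, 1205 of them higher, 49 higher and 33 lower passed 2-fold, and 1494 changed. Without 5 h 409 higher passed 2-fold, 0 changed (edgeR, with 1074 at an unadjusted p under 0.05), the core held 1451 higher and 1662 lower, C1GalTA turned to -0.56 (edgeR adjusted p = 0.000605; its other alternatives ranged up to 0.36) and VhaAC45 was called at 0.70.

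With one library left out at a time the calls ranged from 3388 to 4633, those past 2-fold from 80 to 253 higher (lowest without GMC replicate 2 of 3 h, highest without NB replicate 3 of 5 h) and from 53 to 103 lower (lowest without GMC replicate 2 of 3 h), and genes changed between ages from 341 (without GMC replicate 1 of 5 h) to 1235 (without NB replicate 1 of 3 h). A group of 2 then leaves 1 library, assumed to vary like the others.

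Correlations of deviations were -0.22 to 0.14 between same-numbered libraries and -0.24 to 0.24 between the others. Deviations from means of 2 or 3 libraries cannot decide whether the numbers pair libraries. With a replicate block 3156 genes were called, 1677 higher and 1479 lower, and 47 lower passed 2-fold. Where no cause is named, the cause was not tested. Of the alternative values of named genes 3349 left the call, or the lack of one, as it was, 46 lost a call, 19 gained one and 1 turned. Genes of few counts limit these results. Promoter motifs were not run, since no sequence table was used here.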
